A study of Saccharomyces cerevisiae with 12 samples.

Results

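The genes described here are 6 genes of the mating programme of budding yeast (Saccharomyces cerevisiae): FUS1 (YCL027W), FUS2 (YMR232W), FIG1 (YBR040W), PRM1 (YNL279W), AGA1 (YNR044W) and KAR4 (YCL055W). They were taken by their identifiers from the 6692 gene entries of the count table, and all 6 were found. RNA was sequenced in 4 groups of 3 libraries, to see how expression changes when Taf14 carries a mutant YEATS domain that no longer binds acetylated histone H3. All strains derive from BY4741. Wild type cells and cells with a taf14 deletion carried the empty vector pRS313-HA3-SSN6. TAF14 cells had the same deletion and full-length TAF14 on that plasmid, and W81A cells had the deletion and the taf14W81A form on it. All 4 groups thus share the HA3-SSN6 plasmid, and both kinds of cell with a TAF14 insert lack the chromosomal gene. The labels name no pheromone treatment. They leave unsaid whether a replicate was its own culture or transformant, and p-values here cover the spread among these libraries, which may be technical.

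Haploid yeast of mating type a responds to alpha factor through the receptor Ste2, a heterotrimeric G protein and a MAP kinase cascade that ends at the transcription factor Ste12. Ste12 binds the pheromone response element and induces genes for adhesion, projection growth, cell fusion and nuclear fusion. Some of these genes are also transcribed at a low level without pheromone. Taf14 is a shared subunit of TFIID, TFIIF and several chromatin remodelling and histone acetylation complexes.

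Each library held between 9.01 M and 11.7 M counts. TAF14 itself had 129 to 148 CPM (counts per 1e6 of the library size, scaled by trimmed mean of M-values) in wild type, 0.199 to 0.484 in deletion cells and 192 to 223 in W81A cells. In TAF14 cells replicate 2 had 142.7 CPM of TAF14, where replicates 1 and 3 averaged 328.5. That library also had 164.5 CPM of the stress gene HSP12, where replicates 1 and 3 averaged 6.18. The summed level of 7 a-specific genes was 2170 to 2297 CPM in wild type, 597 to 599 in deletion cells, 1911 to 2533 in TAF14 cells and 947 to 1020 in W81A cells. The summed level of 4 alpha-specific genes was 30.1 to 42.5 CPM over the 12 libraries, and that of 5 diploid or meiotic genes 36.9 to 47.7. Most of the alpha-specific sum was SAG1, at 23.0 to 31.1 CPM. STE3, the a-factor receptor gene of alpha cells, had 3.22 to 3.90 CPM in wild type and 0.546 to 1.36 in deletion cells. It had 3.63 to 5.13 CPM in TAF14 cells and 4.45 to 5.33 in W81A cells. Among the other alpha-specific genes, MF(ALPHA)1 averaged 1.47 CPM in wild type and 0.236 in deletion cells. MF(ALPHA)2 averaged 2.78 CPM in wild type and 3.52 in deletion cells. The summed level of 7 haploid-specific genes, 5 of them also on the cascade list below, was 660 to 686 CPM in wild type, 399 to 429 in deletion cells, 589 to 679 in TAF14 cells and 457 to 469 in W81A cells. This sum was lower in deletion and W81A cells, but its genes did not all move with it. RME1 averaged 65.3 CPM in wild type, 66.1 in deletion, 40.6 in TAF14 and 43.6 in W81A cells. In W81A against TAF14 cells 3 of the 7 were called lower (adjusted p below 0.05), 0 higher and 4 not called. Of all genes tested 17.2% were lower there and 15.8% higher. The part of these 7 genes in the levels of the mating genes was not tested. None of these marker genes was at 0 in all libraries. In RNA from whole cultures, fewer cells expressing a gene and less RNA per cell cannot be told apart.

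The DNA before each gene is shown first, because 5 of the 6 genes share a sequence there. The windows run from 250 bases before the start codon to 50 bases after its first base, on the plus strand of build R64 (sacCer3), read from the RefSeq genome. Capitals mark each match to TGAAACA, the pheromone response element to which Ste12 binds, or to its reverse complement TGTTTCA. The windows are chrIII:71553-71852, chrXIV:703449-703748, chrIII:27679-27978, chrXIV:110667-110966 and chrXIII:736676-736975.
FUS1: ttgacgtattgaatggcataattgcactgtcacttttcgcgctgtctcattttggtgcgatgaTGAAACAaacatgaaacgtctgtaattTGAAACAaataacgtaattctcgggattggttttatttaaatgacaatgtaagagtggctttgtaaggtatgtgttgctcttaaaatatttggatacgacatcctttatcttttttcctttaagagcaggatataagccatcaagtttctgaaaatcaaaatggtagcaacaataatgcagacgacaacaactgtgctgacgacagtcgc
AGA1: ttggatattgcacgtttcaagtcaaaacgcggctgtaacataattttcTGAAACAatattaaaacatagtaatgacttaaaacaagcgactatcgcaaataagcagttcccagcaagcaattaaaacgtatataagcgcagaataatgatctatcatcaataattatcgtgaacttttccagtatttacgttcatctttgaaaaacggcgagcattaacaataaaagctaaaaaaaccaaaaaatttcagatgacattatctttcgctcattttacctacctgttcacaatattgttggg
KAR4: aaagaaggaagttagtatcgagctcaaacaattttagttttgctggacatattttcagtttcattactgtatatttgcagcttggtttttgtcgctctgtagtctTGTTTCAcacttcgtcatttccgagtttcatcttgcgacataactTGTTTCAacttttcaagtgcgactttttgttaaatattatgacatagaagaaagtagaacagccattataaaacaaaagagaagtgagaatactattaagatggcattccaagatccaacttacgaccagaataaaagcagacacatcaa
PRM1: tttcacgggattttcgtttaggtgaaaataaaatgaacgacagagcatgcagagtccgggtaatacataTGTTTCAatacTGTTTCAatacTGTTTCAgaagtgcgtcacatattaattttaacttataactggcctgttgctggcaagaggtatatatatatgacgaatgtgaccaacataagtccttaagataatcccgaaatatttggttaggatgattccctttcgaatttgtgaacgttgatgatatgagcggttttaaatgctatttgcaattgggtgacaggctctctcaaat
FUS2: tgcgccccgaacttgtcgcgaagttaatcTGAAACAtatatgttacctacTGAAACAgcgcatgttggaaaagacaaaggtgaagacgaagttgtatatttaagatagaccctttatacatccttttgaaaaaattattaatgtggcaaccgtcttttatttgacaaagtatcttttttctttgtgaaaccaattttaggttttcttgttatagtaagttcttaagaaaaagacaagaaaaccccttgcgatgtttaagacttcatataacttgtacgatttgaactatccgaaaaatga
FUS1 had 2 matches in the direction of the gene, starting 187 and 160 bases before the start codon. FUS2 also had 2 in the direction of the gene, at 221 and 200 bases. AGA1 had 1, at 202 bases. KAR4 had 2 on the opposite strand, at 145 and 100 bases, and PRM1 had 3 on the opposite strand, at 181, 170 and 159 bases. FIG1 had no full match and 2 matches to the 6-base core TGAAAC, which is contained in the full element. Both strands were searched.

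**Figure D1:**
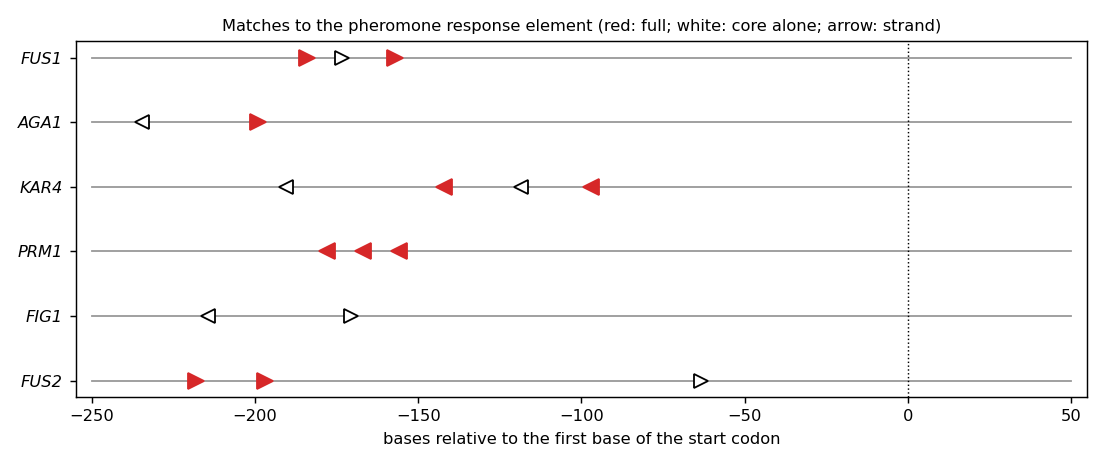
Positions of matches to the pheromone response element in the 6 windows, in bases from the first base of the start codon. Red arrows are full matches, white arrows are matches to the core alone, and arrows point along the strand that holds the match. FUS2, whose levels overlapped in the 4 groups, has 2 full matches, as many as FUS1 and KAR4.

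Of 6001 windows of the same length at nuclear protein-coding genes, 7.5% held at least 1 full match and 0.417% held 2 or more. PRM1 was the only window with 3. The core was in 19.9% of windows, and 2.18% held 2 or more. Among related genes, the full element was in 5 of 7 a-specific windows, 4 of 17 windows of the signalling cascade, 6 of 16 windows of other pheromone-induced genes, 2 of 4 windows of filamentous growth targets (1 of them with 2 or more) and 0 of 11 windows of fusion and polarity proteins. A match is a description of the letters and does not show that a factor was bound.

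FUS1 encodes a plasma membrane protein of the mating projection that is required for cell fusion. It lies on chromosome III from 71803 to 73341, on the plus strand, in 1 exon. Its levels were 23.2, 20.0 and 20.1 CPM in wild type and 44.0, 11 and 44.3 in TAF14 cells. They were 4.62, 3.18 and 5.39 CPM in W81A cells and 5.35, 8.06 and 7.65 in deletion cells. All 6 libraries of W81A and deletion cells lay below all 6 of wild type and TAF14 cells, and the nearest library on the upper side was TAF14 replicate 2. FUS1 was 7.42-fold lower in W81A cells than in TAF14 cells (log2 change -2.89 ± 0.45, standard error, n = 3 per group, adjusted p = 0.000374 by edgeR's quasi-likelihood test with Benjamini-Hochberg adjustment, used throughout). Against wild type it was 4.78-fold lower in W81A cells (-2.26 ± 0.46, adjusted p = 0.00281) and 2.99-fold lower in deletion cells (-1.58 ± 0.43, adjusted p = 0.00799). In deletion against TAF14 cells the change was -2.21 ± 0.41 (adjusted p = 0.000692), and -2.64 without TAF14 replicate 2.

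AGA1 encodes the anchor subunit of a-agglutinin, which holds the adhesive subunit Aga2 at the surface of a cells. It lies on chromosome XIV from 703699 to 705876, on the plus strand, in 1 exon. Its levels were 39.7, 36.7 and 38.2 CPM in wild type and 58.6, 18.3 and 44.2 in TAF14 cells. They were 12, 12.4 and 15.2 CPM in W81A cells and 22.9, 11.3 and 15.1 in deletion cells. The W81A libraries lay below every library of wild type and TAF14 cells, while deletion replicate 1 lay above TAF14 replicate 2. AGA1 was 3.04-fold lower in W81A cells than in TAF14 cells (-1.60 ± 0.34, adjusted p = 0.00346) and 2.89-fold lower than in wild type (-1.53 ± 0.34, adjusted p = 0.00511). In deletion cells it fell by 1.29 ± 0.33 on the log2 scale against TAF14 cells (adjusted p = 0.0061, with a change of -1.65 without TAF14 replicate 2) and by 1.22 ± 0.33 against wild type (adjusted p = 0.0087). AGA2, the gene of its partner, was 4.22-fold lower in W81A than in TAF14 cells (16.3 against 69.1 CPM, adjusted p = 7.99e-05).

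**Figure D2:**
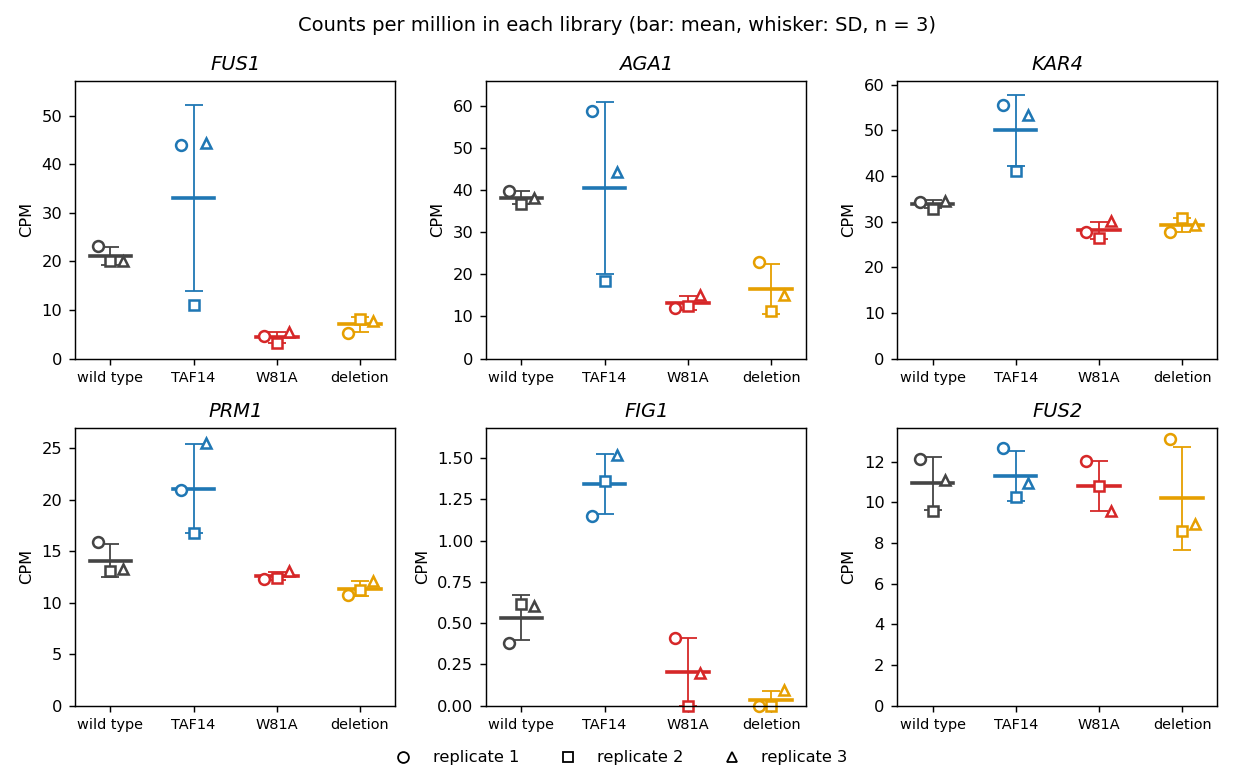
CPM of each gene in each of the 12 libraries, with the group mean as a bar and the standard deviation as a whisker (n = 3), and the replicate number as the symbol. FUS1 and AGA1 are low in W81A and deletion cells and in TAF14 replicate 2, KAR4 and PRM1 are highest in TAF14 cells, and FUS2 lies between 8.56 and 13.1 CPM in all libraries.

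KAR4 encodes a transcription factor that is needed to induce genes of nuclear fusion in response to pheromone. It lies on chromosome III from 27929 to 28936, on the plus strand, in 1 exon. Its levels were 34.4, 32.9 and 34.4 CPM in wild type and 55.5, 41.2 and 53.3 in TAF14 cells. They were 27.7, 26.5 and 30.1 CPM in W81A cells and 27.8, 30.9 and 29.3 in deletion cells. Every TAF14 library lay above wild type, and every W81A and deletion library lay below it. KAR4 was 1.78-fold lower in W81A cells than in TAF14 cells (-0.83 ± 0.10, adjusted p = 7.46e-05) and 1.70-fold lower in deletion cells than in TAF14 cells (-0.77 ± 0.10, adjusted p = 5.38e-05). TAF14 cells were themselves 1.47-fold above wild type (0.56 ± 0.10, adjusted p = 0.00333), with a change of 0.68 without their replicate 2. Against wild type the changes were -0.27 ± 0.11 in W81A cells (adjusted p = 0.0752) and -0.21 ± 0.11 in deletion cells (adjusted p = 0.117), neither of them called with all libraries. Without TAF14 replicate 2, a library that enters the shared estimate of spread, both were (adjusted p = 0.0106 and 0.0257).

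PRM1 encodes a membrane protein that acts when the plasma membranes of mating partners fuse. It lies on chromosome XIV from 110917 to 112902, on the plus strand, in 1 exon. Its levels were 15.9, 13.0 and 13.2 CPM in wild type and 20.9, 16.8 and 25.5 in TAF14 cells. They were 12.3, 12.4 and 13.1 CPM in W81A cells and 10.7, 11.2 and 12.1 in deletion cells. The TAF14 libraries lay above those of the other 3 groups, and wild type overlapped W81A cells. PRM1 was 1.66-fold lower in W81A cells than in TAF14 cells (-0.74 ± 0.14, adjusted p = 0.00171) and 1.84-fold lower in deletion cells than in TAF14 cells (-0.88 ± 0.14, adjusted p = 0.00023). TAF14 cells were 1.49-fold above wild type (0.57 ± 0.14, adjusted p = 0.0144), a call that was lost without wild type replicate 2, wild type replicate 3 or TAF14 replicate 3 (adjusted p = 0.0542, 0.0535 and 0.0571). Without TAF14 replicate 2 this change was 0.72. Against wild type the changes were -0.16 ± 0.15 in W81A cells (adjusted p = 0.447) and -0.31 ± 0.15 in deletion cells (adjusted p = 0.1), neither called with all libraries. The latter was called without TAF14 replicate 2 (adjusted p = 0.0395).

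FIG1 encodes a membrane protein of the mating projection that takes part in calcium entry during mating. It lies on chromosome II from 316968 to 317864, on the plus strand, in 1 exon, and was counted very rarely. It had 4, 6 and 6 counts in the wild type libraries, 11, 15 and 14 in TAF14 cells, 4, 0 and 2 in W81A cells and 0, 0 and 1 in deletion cells. The TAF14 libraries were the highest, and they alone reached the 1.04 CPM of the filter on low counts, so that FIG1 entered the tests only through the group where it was high. Scaled to library size, the summed counts of W81A cells were 0.153 of those of TAF14 cells (exact 95% interval 0.053 to 0.363, counting error only). For deletion cells, with 1 count against 40, the ratio to TAF14 cells was 0.0252 (0.000623 to 0.149), and with 1 against 16 the ratio to wild type was 0.0639 (0.00152 to 0.411). The ratio of TAF14 cells to wild type was 2.53 (1.39 to 4.84), and that of W81A cells to wild type 0.388 (0.124 to 1.04). All these intervals pool the 3 libraries of a group and leave out the spread between them. Since FIG1 was kept for its level in TAF14 cells, ratios that involve those cells are descriptions and not tests. The fit did not call FIG1 in TAF14 cells against wild type. Because of the filter, no p-value is given for FIG1. Its tests against wild type too were run only because of its level in TAF14 cells. Against wild type its fitted change in deletion cells was -3.55 ± 0.91 and called lower. The change was -3.07 without deletion replicate 2 and -5.42 without deletion replicate 3. In W81A cells FIG1 was not called against wild type. A count of 0 allows up to 3 counts.

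FUS2 encodes a cytoplasmic protein that acts with Rvs161 at the site of cell fusion. It lies on chromosome XIII from 736926 to 738959, on the plus strand, in 1 exon. Its levels were 12.1, 9.55 and 11.1 CPM in wild type and 12.7, 10.3 and 10.9 in TAF14 cells. They were 12, 10.8 and 9.58 CPM in W81A cells and 13.1, 8.56 and 8.91 in deletion cells. The 4 groups overlapped. FUS2 was called in no comparison, with adjusted p between 0.48 and 0.941. The change in W81A against TAF14 cells was -0.0625, with a 95% interval of -0.426 to 0.301 on the log2 scale.

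Levels of the genes can be set against each other only per length. On that scale KAR4 was the highest of the 6 genes in each group, at 33.6 CPM per kilobase in wild type, 49.6 in TAF14 cells, 27.8 in W81A cells and 29.1 in deletion cells. FIG1 was the lowest in each, at 0.595, 1.5, 0.227 and 0.036 in the same order. In wild type AGA1 (17.5), FUS1 (13.7), PRM1 (7.08) and FUS2 (5.37) followed KAR4. In W81A cells the order below KAR4 was PRM1 (6.34), AGA1 (6.05), FUS2 (5.31) and FUS1 (2.86). FUS1 thus stood above FUS2 per length in wild type and below it in W81A cells. In deletion cells AGA1, PRM1, FUS2 and FUS1 lay at 7.56, 5.72, 5.01 and 4.56, and in TAF14 cells FUS1, AGA1, PRM1 and FUS2 at 21.5, 18.5, 10.6 and 5.55. In wild type no neighbours in the order overlapped over their libraries. In W81A cells PRM1 overlapped AGA1 and AGA1 overlapped FUS2, and in deletion cells each of these 4 genes overlapped the next. In TAF14 cells FUS1 overlapped AGA1 and AGA1 overlapped PRM1.

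Apart from FIG1, 4 of the 5 genes were lower in W81A cells than in TAF14 cells, where 17.2% of the 5918 genes tested were lower and 15.8% higher. In deletion against TAF14 cells 4 of these 5 were lower, where 24.8% of all genes were lower and 24.1% higher. FIG1 was called lower in both, but was tested only because of its level in TAF14 cells. These comparisons share the TAF14 libraries. In W81A cells against wild type 2 of 6 were lower, with 14.5% of all genes lower and 12.7% higher. In deletion cells against wild type 2 of 5 were lower without FIG1, with 24.9% of all genes lower and 24.0% higher. FIG1 was called lower there as well, again tested only because of its level in TAF14 cells. In TAF14 cells against wild type 2 of 6 were higher, with 8.75% of all genes lower and 8.11% higher. The split of all genes there was 480 higher and 518 lower, and 360 higher and 628 lower with upper-quartile scaling.

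**Figure D3:**
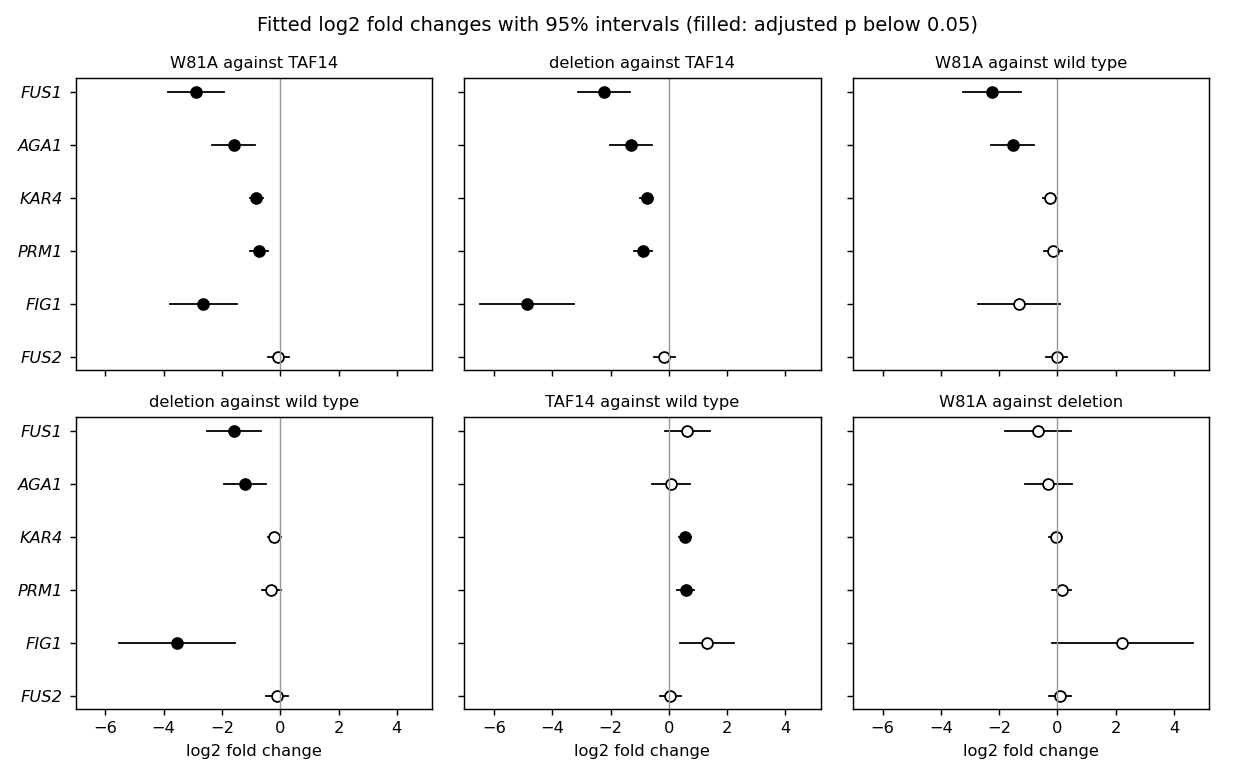
Log2 fold change of each gene in each of the 6 comparisons (first group against second), with its 95% interval from the fit across all genes; filled points have an adjusted p below 0.05. Against TAF14 cells 5 genes are filled on the lower side in both panels, one of them FIG1, which was tested only because of its level in TAF14 cells. Against wild type FUS1 and AGA1 are filled for W81A cells, and between W81A and deletion cells none is filled.

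W81A and deletion cells were compared directly. With edgeR 0 of the 6 genes were called, and 0 of 5 without FIG1. Of all genes 22.5% were lower and 22.7% higher in W81A cells. None of the 6 had an unadjusted p under 0.05, and DESeq2 and limma-voom also called 0 of them. The change in FUS1 was -0.68 ± 0.53, with a 95% interval of -1.81 to 0.46, and that in AGA1 was -0.31 ± 0.37 (-1.11 to 0.49). KAR4 had a change of -0.06 with an interval of -0.29 to 0.17, and PRM1 one of 0.15 (-0.18 to 0.47). FIG1, at 6 against 1 counts, had a fitted change of 2.23 ± 1.12 (-0.20 to 4.66). Without TAF14 replicate 2 the same change of -0.68 in FUS1 was called (adjusted p = 0.01), and so was it with the 6 libraries of these cells alone (adjusted p = 0.0221). The FIG1 change ran from 1.31 without W81A replicate 1 to 4.10 without deletion replicate 3, and was called without W81A replicate 2 (2.77). FIG1 was tested here only because of its level in TAF14 cells, which are not part of this comparison. With the 6 libraries of these cells alone it did not pass the filter, so no result is drawn from it.

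Replicate 2 of TAF14 cells separated the genes. Its FUS1 level was 24.9% of the mean of replicates 1 and 3, and its AGA1 level 35.7%. KAR4 was at 75.7%, PRM1 at 72.4%, FUS2 at 86.9% and FIG1 at 102%. Of the 5918 genes tested, 2 had a lower ratio than FUS1 and 25 a lower ratio than AGA1, a count made after these values were seen. TAF14 was at 43.4% in the same library, and HSP12 stood far above the other 2 libraries. Over the other groups HSP12 had 43.6 to 79.2 CPM in wild type, 1151 to 1299 in W81A cells and 1378 to 1562 in deletion cells. The part of TAF14 level or of HSP12 in the low FUS1 and AGA1 values was not tested.

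**Figure D4:**
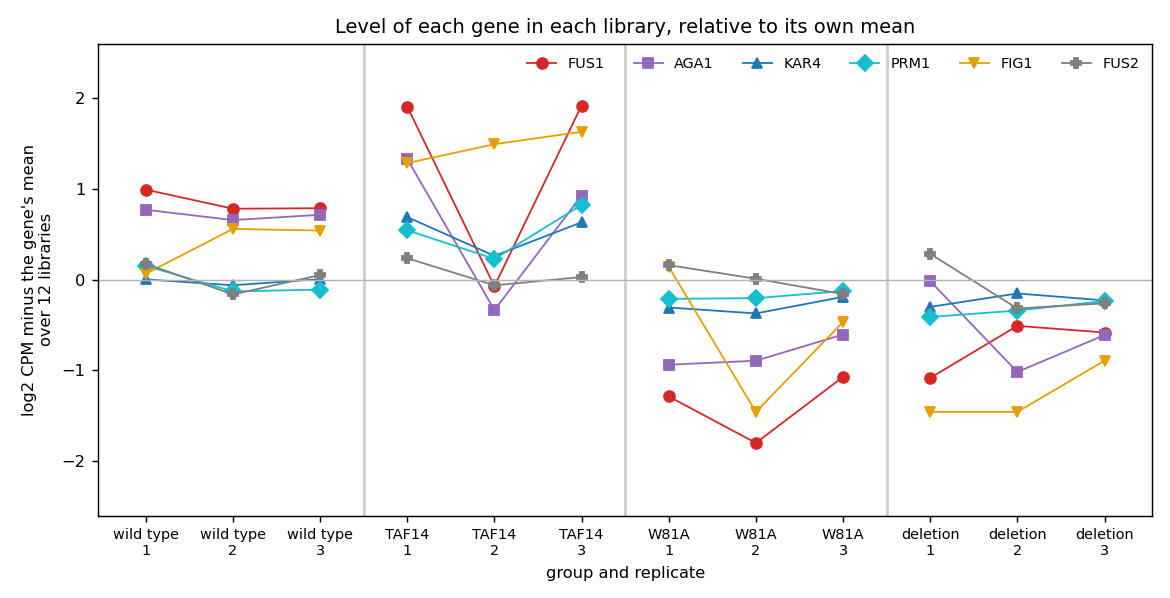
Log2 CPM of each gene minus its own mean over the 12 libraries, by group and replicate; lines join the replicates of a group only to guide the eye. FUS1 and AGA1 are high in TAF14 replicates 1 and 3 and near or below their mean in TAF14 replicate 2, while FIG1 is high in all 3 TAF14 libraries and FUS2 stays near 0.

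Without that library the W81A change of FUS1 against TAF14 cells was -3.32 (adjusted p = 1.89e-09) and that of AGA1 was -1.96 (adjusted p = 2.71e-06). The FUS1 difference between TAF14 cells and wild type was 0.63 ± 0.36 with all libraries (adjusted p = 0.252) and 1.06 without replicate 2, where it was called (adjusted p = 4.19e-05). The counts of the 6 genes called became 5, 5, 3, 5, 3 and 1. The order is W81A against TAF14, deletion against TAF14, W81A against wild type, deletion against wild type, TAF14 against wild type and W81A against deletion. FIG1 was among those lower against TAF14 cells and among those of deletion against wild type. Calls over all genes rose as well. In the same order they were 2149, 3165, 2008, 3217, 1385 and 3034 of 5946 without TAF14 replicate 2. With all libraries they were 1954, 2893, 1611, 2891, 998 and 2677 of 5918. AGA1 did not differ detectably between TAF14 cells and wild type with all libraries (0.07, 95% interval -0.59 to 0.74, adjusted p = 0.906), and the sign of this change depended on the library left out.

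The same libraries were read for other genes of the mating pathway, in lists chosen by function. All 7 a-specific genes were lower in W81A than in TAF14 cells, with a median log2 change of -1.73, where the median of all genes tested was 0.00046. Of all genes tested 17.2% were lower in that comparison and 15.8% higher. BAR1, which encodes a secreted protease for alpha factor, had 41.6 CPM in W81A and 388 in TAF14 cells (9.33-fold lower, adjusted p = 1.98e-07), and MFA1, a gene of the a-factor precursor, was 6.32-fold lower (adjusted p = 4.99e-07). Of 17 genes of the signalling cascade 10 were lower and 0 higher, with a median of -0.52. SST2, the regulator that switches off the G protein, was 5.64-fold lower (adjusted p = 2.54e-08), and FAR1, which arrests the cell cycle, was 3.31-fold lower (adjusted p = 2.09e-07).

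Among 15 tested genes induced by pheromone outside the 6, 7 were lower and 2 higher in that comparison, with a median of -0.31. Of all genes tested 17.2% were lower there and 15.8% higher. The 2 higher genes were KAR3 (1.49-fold, adjusted p = 0.000695) and CIK1 (1.41-fold, adjusted p = 0.000941). AFR1, needed for normal projections, was 2.91-fold lower (adjusted p = 1.98e-06), and PRM5 was 1.98-fold lower (adjusted p = 1.21e-05). The 11 fusion and polarity proteins, which include the Fus2 partner Rvs161, did not share a direction, with 1 lower and 3 higher and a median of 0.05. KEL1 was 1.18-fold higher (adjusted p = 0.0149) and KEL2 1.24-fold lower (adjusted p = 0.0131), and between 1 and 2 genes of this list were called without TAF14 replicate 1 or 3 or W81A replicate 1 or 3. TEC1, a transcription factor that pairs with Ste12 on filamentation genes, was 2.75-fold lower (adjusted p = 6.68e-06), one of 2 lower genes among 4 filamentous growth targets, of which 1 was called without W81A replicate 1.

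Against wild type, where 14.5% of all genes were lower and 12.7% higher, W81A cells had 7 of 7 a-specific and 10 of 17 cascade genes lower and none of either list higher. Of the 15 other pheromone-induced genes 5 were lower and 3 higher (median -0.14). Of the fusion and polarity genes 1 was lower and 1 higher, with 1 called without wild type replicate 1 or W81A replicate 1, and 4 without TAF14 replicate 2. In deletion cells 7 of 7 a-specific genes were lower against TAF14 cells (median -2.36) and against wild type (median -2.26), and 12 and 11 of 17 cascade genes were lower. There 2 cascade genes were higher against TAF14 cells and 1 against wild type, with 24.0% to 24.9% of all genes called in each direction. STE11, a kinase of the cascade, was higher in deletion cells in both comparisons (0.60 and 0.75, adjusted p = 0.00211 and 0.000511), and STE50, its adaptor, against TAF14 cells (0.26, adjusted p = 0.0118). These names were chosen after their values were seen. STE11 and SST2 lie on chromosome XII, whose 471 tested genes had a median change of 0.25 in deletion against TAF14 cells, 0.46 in deletion cells against wild type and -0.20 in W81A against TAF14 cells, and none of the 6 genes lies there. Other pheromone-induced genes were split 7 lower and 1 higher against TAF14 cells and 6 lower and 2 higher against wild type, and without TAF14 replicate 1 the first comparison had 5 called. STE2, the alpha factor receptor gene, was 6.85-fold lower in deletion cells than in wild type (113 against 774 CPM, adjusted p = 2.24e-10). Directly compared, STE2 was 3.49-fold higher in W81A cells than in deletion cells (adjusted p = 8.73e-09). Of the a-specific genes 3 of 7 were higher in that comparison and 0 lower, and without TAF14 replicate 2 the number called was 6. Of all genes 22.7% were higher and 22.5% lower there, and without that library 3034 of 5946 were called.

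Over the 12 libraries, the genes whose mean-centred log2 CPM lay nearest to the average profile of the 6 were TEC1, FRK1, GPA1, GSH1, STE6 and CLB6, at root mean square differences of 0.151, 0.160, 0.182, 0.203, 0.209 and 0.210. The median over 5912 genes was 0.628. TEC1 is described above, FRK1 encodes a protein kinase, GPA1 the alpha subunit of the pheromone G protein, GSH1 an enzyme of glutathione synthesis, STE6 the exporter of a-factor and CLB6 a B-type cyclin. The 12 libraries share their 4 groups, which shape these differences. The average includes FIG1, which had 0 to 15 counts in a library and was kept only for its level in TAF14 cells. Taken singly, PRM1 was nearest to KAR4 (0.125) and the uridine permease gene FUI1 (0.134), and KAR4 to the hexokinase gene HXK2 (0.101) and HAP1 (0.108). FUS1 was nearest to the flavohemoglobin gene YHB1 (0.427) and YDL241W (0.461), AGA1 to MET14 (0.297), and FUS2 to MLP2 (0.107) and NOT5 (0.109). The median difference over all genes compared was 1.22 for FUS1, 0.828 for AGA1, 0.412 for PRM1, 0.400 for KAR4 and 0.278 for FUS2. These differences scale with the range of a profile, which was 3.72 for FUS1 and 0.602 for FUS2. Both genes nearest to FIG1 have near copies, so their counts are uncertain and they are not named.

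The 12 genes flanking the 6 were read to see whether whole neighbourhoods moved. In W81A against TAF14 cells 4 flanking genes were lower and 2 higher, with a median of 0.02, beside 17.2% lower and 15.8% higher of all genes. In deletion against TAF14 cells 3 were lower and 2 higher (median -0.15), beside 24.8% and 24.1% of all genes. Against wild type 0 were lower and 2 higher in W81A cells, beside 14.5% and 12.7% of all genes. In deletion cells 2 were lower and 3 higher, beside 24.9% and 24.0%. In TAF14 cells 1 was lower and 1 higher, beside 8.75% and 8.11%. HBN1 (YCL026C-B) lies 63 bases beyond the end of FUS1, on the opposite strand. It was lower in W81A cells than in TAF14 cells (-1.16, adjusted p = 0.00735) but had a change of 0.000835 in deletion against TAF14 cells (adjusted p = 0.998), where FUS1 fell by 2.21. RNQ1, on the other side of FUS1, was higher than in TAF14 cells both in W81A cells (0.36, adjusted p = 0.00121) and in deletion cells (0.27, adjusted p = 0.00415). Against wild type RNQ1 was also higher in W81A and deletion cells (0.37 and 0.28, adjusted p = 0.00128 and 0.00397). None of the 6 genes overlaps an annotated gene or has a near copy, and the strand setting of the counting is not given in the sources used here.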

How the data were processed

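The authors deposited raw counts of reads for each gene, as whole numbers, in 12 libraries. Per the labels' protocols, total RNA was depleted of ribosomal RNA and made into stranded libraries. The submitters' processing notes name TopHat2 2.0.14, SAMtools 0.1.19, HTSeq 0.6.1p1, DESeq2 1.8.1 and sacCer3. The strand setting is not given in the sources used here. Of 6692 entries, 6008 matched the R64 annotation by locus tag.

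A quasi-likelihood F-test (edgeR 4.0.16 under R 4.3.3) was run on 1 model holding all 4 groups, scaled by trimmed mean of M-values. The default filter (minimum count 10) left 5918 genes. Adjusted p-values are by Benjamini-Hochberg over all of them, and a gene is called below 0.05. Standard errors come from the F statistic. Likeness used log2 CPM with a prior count of 2. Near copies (95% identity over 30% of the length) were searched with blastn 2.17.0+. Alternatives were DESeq2 1.42.0, limma-voom (limma 3.58.1), 2 other scalings, 2 other filters, the 6 libraries of a comparison alone, each library left out, no chromosome XII and a replicate term. The pipeline was tested on simulated data. The genes and lists were chosen with earlier results of these data known. AGA2 was added as the partner of AGA1. Most other named genes beyond the 6 are, per list and comparison, called genes among the 2 with the smallest p, the nearest profiles and flanking genes. Outside this rule, STE11, STE50, KAR3 and CIK1 were picked after their values were seen. SAG1, STE3, MF(ALPHA)1, MF(ALPHA)2 and RME1 were picked from the marker genes. Of the flanking genes, HBN1 and RNQ1 were picked after their values were seen.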

Additional observations from a re-analysis of the deposited data

How the results depend on the processing

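FUS1, AGA1, KAR4 and PRM1 kept direction and call against TAF14 cells, in W81A and in deletion cells, under all alternatives run. FIG1 is left out of this, since it was tested only because of its level in TAF14 cells, and the filter of 10 CPM removed it. The AGA1 change in the TAF14 strain against wild type reversed with limma-voom (-0.109) and in the fit with a replicate block (-0.0113), and ran from -0.307 to 0.429 when libraries were left out in turn. The FUS2 change, never called, ran from -0.145 to 0.0389 in W81A against TAF14, -0.108 to 0.0616 in W81A against wild type, -0.325 to 0.0172 in deletion against wild type, -0.0527 to 0.124 in TAF14 against wild type and -0.0379 to 0.304 in W81A against deletion. The cause was not tested. With the 6 libraries of a comparison alone, 1 of the 6 genes was called in TAF14 against wild type. In W81A against deletion 1 of 5 was called, since FIG1 did not pass the filter there. Leaving libraries out gave 3 to 5 called genes in deletion against wild type, 1 to 3 in TAF14 against wild type and 0 to 1 in W81A against deletion. All genes called in TAF14 against wild type numbered 998, 432 with 6 libraries, and 559 to 1385 with a library left out. Deviations of same-numbered libraries correlated between -0.219 and 0.309. Each TAF14 library correlated best with the wild type library of its own number (0.0619, 0.0901 and 0.156). The labels do not say that a number marks a shared day or culture, so the numbers were not taken as pairs. FIG1, with at most 15 counts in a library, is limited by depth.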
